A study of Mus musculus with 16 samples.

Results

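The response of HFpEF hearts to succinate was compared between 2 genotypes by its interaction, the succinate effect in Cre hearts minus the succinate effect in floxed hearts. HFpEF is heart failure with preserved ejection fraction, in which the ventricle fills poorly while its ejected share stays normal. All 16 samples were mouse hearts carrying a model of it made over 12 weeks by a high-fat diet and L-NAME, which blocks nitric oxide synthesis, so no group is a healthy control. The floxed hearts came from Gpr91fl/fl mice and the Cre hearts from Myh6Cre Gpr91fl/fl mice, in which a promoter active in cardiomyocytes drives Cre. Each genotype was studied with succinate on top of the model and without it (untreated below), which gave 4 groups of 4 samples, called hearts below although the labels do not say that each is a separate animal; the dose and route of succinate and the age and sex of the mice are not stated in the labels. No group carried Cre without the floxed alleles, so an effect of Cre itself and an effect of the deletion cannot be told apart. The members were every gene that passed a filter on low counts, 14607 of the 24371 genes in the deposited count table, and each was tested in the 16 libraries together.

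Succinate is an intermediate of the tricarboxylic acid (TCA) cycle, made from succinyl-CoA and oxidised by succinate dehydrogenase in the mitochondrial inner membrane. Outside cells it is the ligand of a G protein-coupled receptor, GPR91, whose gene has the current symbol Sucnr1 and which signals through Gi and Gq proteins. In the heart the receptor has been studied in cardiomyocytes, fibroblasts and immune cells, and succinate that enters a cell can also be burned as fuel without it. The interaction subtracts whatever the genotypes differ by before treatment, and so compares the sizes of the responses.

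Library totals were 27835235 to 34700996 counts. Sucnr1 had only 0 to 21 counts per library, 6 in all 4 untreated floxed libraries together, 14 in the floxed hearts given succinate, 32 in the untreated Cre hearts and 31 in the Cre hearts given succinate. It did not enter the tested set, and its counts were not lower in the hearts labelled as knockouts, so they give no check of the deletion and genotype below means the label. The label of heart muscle fitted its markers: ventricular muscle genes were abundant in every library (13 markers summed to 49010 to 77820 CPM, a gene's count scaled by the library total), while the atrial muscle genes Myl7, Sln and Bmp10 were too low to test. On the leading principal components 2 untreated libraries stood apart from their groups, replicate 4 of the floxed hearts and replicate 1 of the Cre hearts, and results that rest on them are given with and without them.

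No gene passed the test of the interaction. The quasi-likelihood test of edgeR, adjusted by the Benjamini-Hochberg method, called 0 of 14607 genes at 0.05 (0%), and the smallest adjusted p was 0.930. At an unadjusted p under 0.05 there were 709 genes (4.85%), 311 with a higher interaction (2.13%) and 398 with a lower one (2.72%). A positive value means that the gene rose more, or fell less, with succinate in the Cre hearts than in the floxed hearts. The median interaction was 0.00 on the log2 scale, and the middle 50% of genes lay between -0.15 and 0.15. The interaction was positive for 50.5% of tested genes. DESeq2 called 4 genes on the same counts, namely Xrn2, Eif3j2, Kcnj14 and Gm47985, and limma voom called 0.

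The precision of the design sets what these values can show. For the median gene the 95% interval of the interaction reached 0.43 log2 units to either side, which is a 1.35-fold difference between the genotypes' responses. For genes below 1 on the log2 CPM scale it reached 1.28, and for genes at 5 or more it reached 0.30. A gene missing from the calls is therefore not shown to respond alike in both genotypes.

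**Figure D1:**
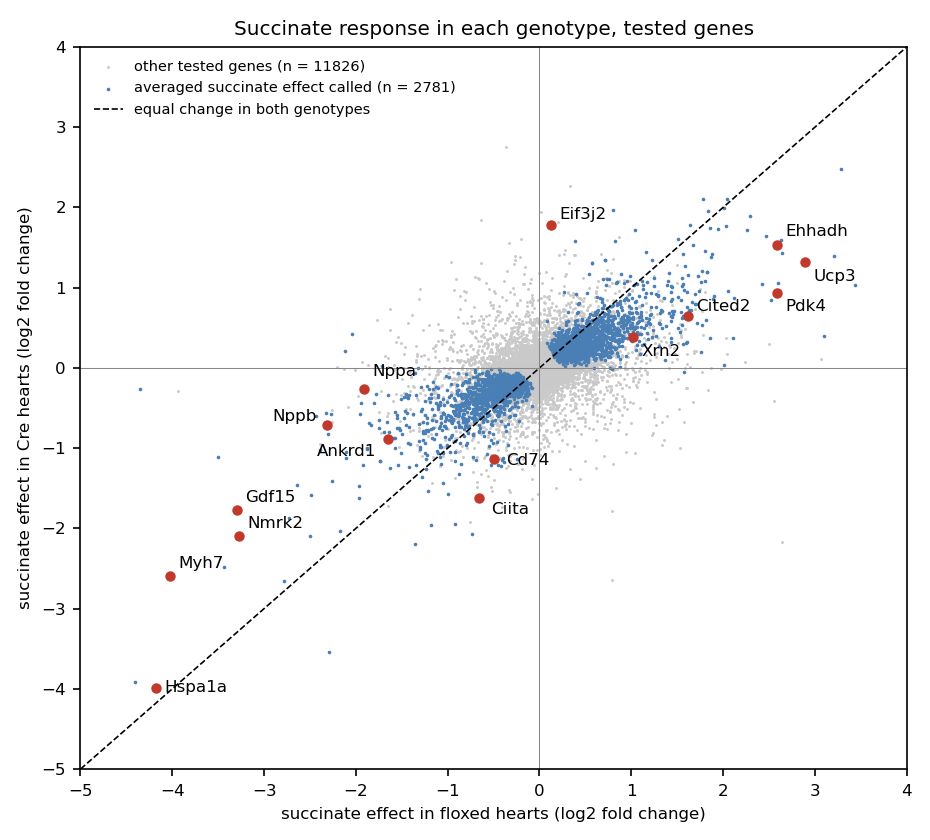
The log2 fold change with succinate in Cre hearts (vertical axis) is plotted against that in floxed hearts (horizontal axis), with 1 point per tested gene and a dashed line where both are equal. Blue points are the 2781 genes called for the succinate effect averaged over both genotypes; most lie closer to the horizontal axis than the dashed line does, and the labelled stress genes at the left and fatty acid genes at the right do the same, whereas Cd74 and Ciita lie below the line.

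A second measure asked how the response as a whole compared in size. The succinate effect averaged over both genotypes, a contrast that is orthogonal to the interaction in this balanced design, was called for 2781 genes (19% of those tested), 1547 higher and 1234 lower with succinate. Of these genes 2290, or 82.3%, had the smaller change in the Cre hearts, against 65.5% of all tested genes and 61.5% of those not called. The median change in the direction of the average was 0.47 log2 units in floxed hearts and 0.30 in Cre hearts. It was much the same for the genes that rose (81.5% smaller in Cre hearts) as for those that fell (83.4%). Among the 218 called genes whose averaged change was at least 2-fold, 184 (84.4%) had the smaller change in Cre hearts, and the medians were 1.56 and 1.02. For 6 of the 2781 genes the estimates of the genotypes had opposite signs, against 3991 of all 14607 tested genes. Choosing genes by their averaged effect favours a shared sign, so the low count cannot show that the genotypes respond in 1 direction.

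Genes of one library move together and are not independent observations, so these shares are descriptions of 16 libraries and carry no test. Leaving out 1 library at a time gave shares of 75.2% (without replicate 2 of the untreated Cre hearts) to 87.3% (without replicate 1 of the same group), and 86.7% without both libraries that stood apart. Both treated and untreated hearts entered this difference: along the direction of the response, the median called gene stood 0.05 log2 units ahead in untreated Cre hearts and 0.11 behind after succinate. On the first principal component of the 500 most variable genes, which held 28.1% of their variance, the mean of the floxed hearts went from -7.49 to 17.3 with succinate, and that of the Cre hearts from -10.6 to 0.84. The mean of the Cre hearts given succinate thus lay between the untreated means and that of the floxed hearts given succinate.

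**Figure D2:**
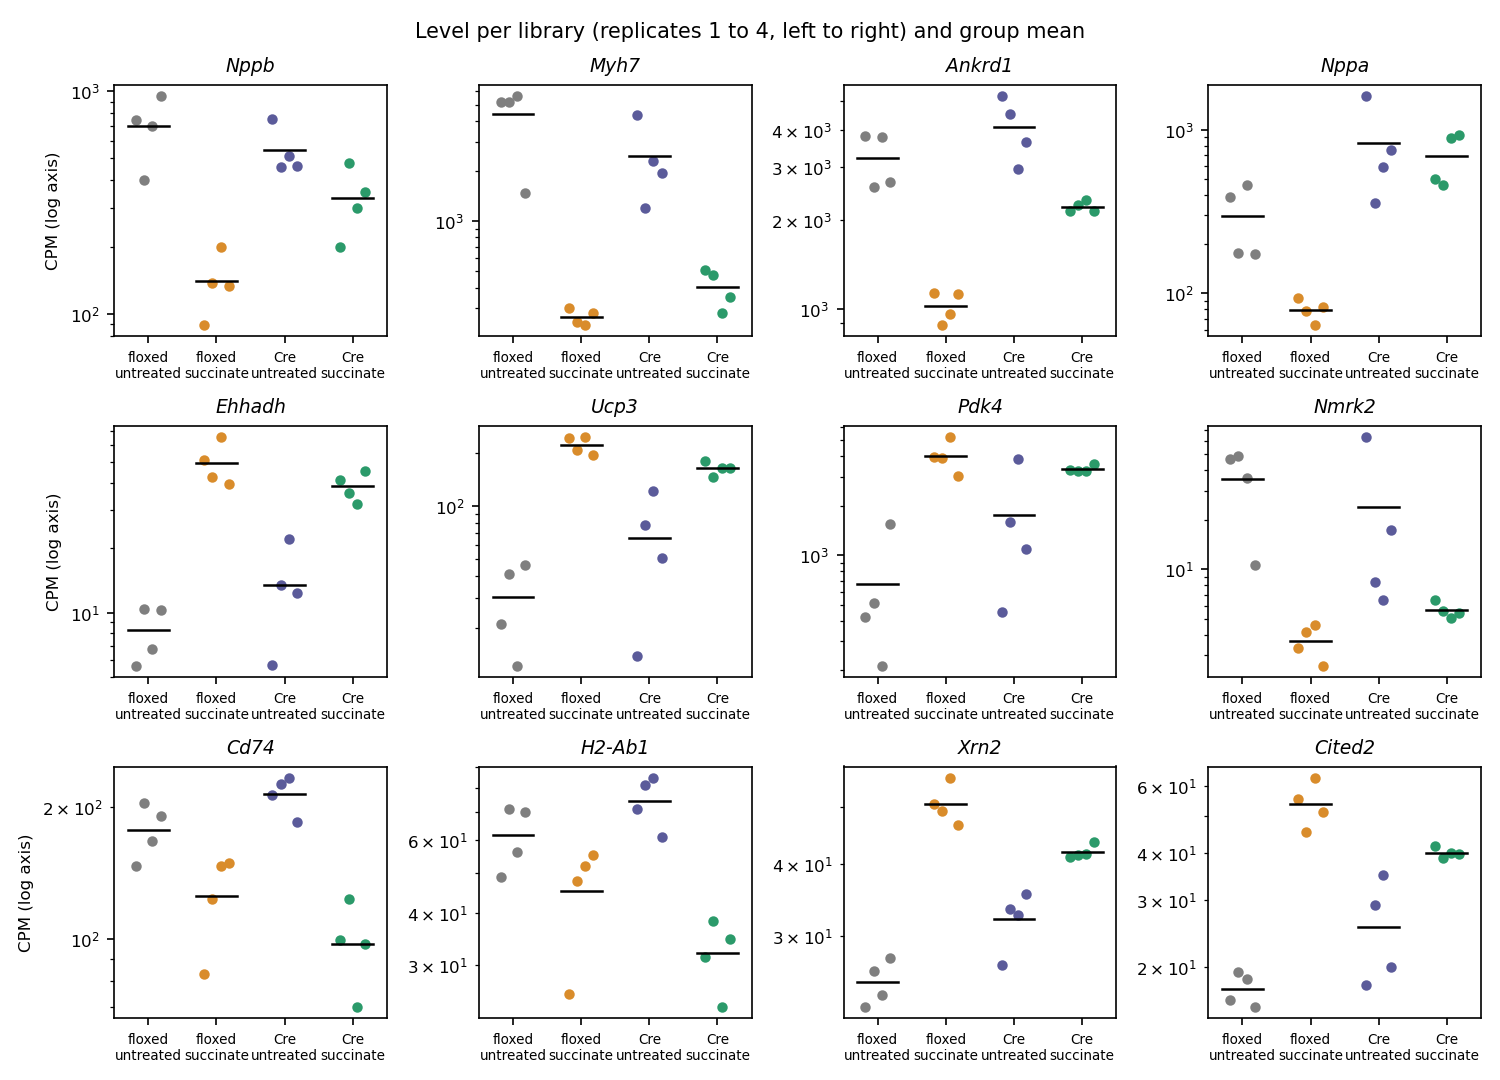
Each panel gives 1 gene's level in CPM on a log axis, with 1 point per library, replicates 1 to 4 from left to right in each of the 4 groups, and a line at the group mean. The stress genes of the top row drop further in floxed than in Cre hearts, Ehhadh, Ucp3 and Pdk4 climb from untreated Cre hearts that spread widely, and Cd74 and H2-Ab1 drop further in Cre hearts.

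The cardiac stress genes dropped less in Cre hearts than in floxed hearts by their estimates, with no member past the adjusted test. This list holds genes that the ventricle switches on under load and in the fetus: natriuretic peptides, fetal sarcomere proteins and stretch sensors. Of 18 listed genes 16 were tested; 0 passed the adjusted test, 6 had an unadjusted p under 0.05 with a positive interaction and 0 with a negative one, against 2.13% and 2.72% of all tested genes. The interaction was positive for 14 of the 16, against 50.5% of all tested genes. Its median was 0.42 (0.35 to 0.46 when each library was left out in turn), against 0.00 for all tested genes. Averaged over genotypes, 12 of the 16 were called lower with succinate. Of all genes so called 83.4% had the smaller change in Cre hearts, so a positive sign was common beyond this list. The list's median change was -0.58 in floxed and -0.45 in Cre hearts. The list was chosen with the direction of these genes already known from the same libraries.

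Nppb, the gene of the natriuretic peptide BNP that ventricles release when stretched, stood at 741, 402, 699 and 954 CPM in the 4 untreated floxed hearts and 89.6, 138, 199.6 and 134 CPM in those given succinate. The Cre hearts had 751, 456, 513 and 461 CPM untreated and 201, 475, 301 and 354 CPM with succinate. All floxed hearts given succinate were thus below all untreated floxed hearts, while the Cre groups overlapped, and every Cre heart given succinate was above every floxed heart given succinate. The interaction was 1.60 ± 0.41 (log2, SE; 95% interval 0.73 to 2.47; unadjusted p = 0.00125, edgeR adjusted p = 0.930). The untreated genotypes differed by -0.36 (Cre minus floxed) and the treated ones by 1.24.

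Ankrd1, a stretch-responsive protein of the sarcomere and nucleus, stood at 3815, 2582, 3791 and 2684 CPM in untreated floxed hearts and 1129, 886, 963 and 1124 CPM with succinate. The corresponding Cre values were 5201, 4509, 2949 and 3655 CPM and 2135, 2236, 2319 and 2140.2 CPM. Here neither genotype's groups overlapped, and the 4 Cre hearts given succinate lay close together and above all 4 of their floxed counterparts. Its interaction was 0.76 ± 0.23 (95% interval 0.28 to 1.24; edgeR adjusted p = 0.930). Ankrd23, a sarcomere protein of the same family, was 1 of the 10 named genes of smallest p, with an interaction of 0.75 ± 0.20.

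The promoters of Nppb and Ankrd1 are shown as examples picked for their matches to the M-CAT motif, which is bound by TEAD factors that drive muscle genes under load. They are the 250 bases before the RefSeq gene start, 5′ to 3′ on the gene's strand in build GRCm38.p6, with the motif CATTCC or its reverse complement in capitals; Nppb lies at chr4:147985650-147985899 on the plus strand and Ankrd1 at chr19:36119845-36120094 on the minus strand.
Nppb: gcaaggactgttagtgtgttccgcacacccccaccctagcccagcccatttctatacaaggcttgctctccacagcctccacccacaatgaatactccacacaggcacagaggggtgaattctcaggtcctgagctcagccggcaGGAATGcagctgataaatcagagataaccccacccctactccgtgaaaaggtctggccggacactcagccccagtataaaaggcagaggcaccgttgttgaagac
Ankrd1: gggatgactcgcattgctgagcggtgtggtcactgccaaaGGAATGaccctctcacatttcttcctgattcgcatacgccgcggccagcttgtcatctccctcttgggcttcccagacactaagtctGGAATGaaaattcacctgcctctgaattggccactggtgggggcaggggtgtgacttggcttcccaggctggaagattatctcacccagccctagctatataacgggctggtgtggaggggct
The Nppb window held 1 match, starting 105 bases before the gene start, and the Ankrd1 window 2, at 210 and 123 bases. On either strand the motif was in 12.6% of 32851 promoter windows of this length and in 6 of the 15 tested stress genes with a window. The motif was picked after these sequences had been read, and a match is a description of the letters only.

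Myh7, the slow myosin that fetal and overloaded mouse ventricles use, stood at 5165, 5211, 5635 and 1468 CPM in untreated floxed hearts and 303, 249, 239 and 279.8 CPM with succinate. In Cre hearts it stood at 4352, 1205, 2297 and 1945 CPM and 510.1, 477, 282 and 352 CPM. Untreated replicate 4 of the floxed hearts was far below the other 3, and untreated replicate 1 of the Cre hearts was far above its group. The interaction was 1.43 ± 0.55 (edgeR adjusted p = 0.970), and without those 2 libraries it was 2.16 ± 0.29 and passed (adjusted p = 0.0144). Both libraries are extreme in Myh7 itself, so that value is not independent of the choice to leave them out. Myh6, the adult counterpart of Myh7 and so similar in sequence that reads could be assigned to either, had an interaction of -0.13 ± 0.18.

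Nppa, the gene of the atrial natriuretic peptide, stood at 387, 177, 460.1 and 173 CPM in untreated floxed hearts and 93.8, 77.5, 64.2 and 81.98 CPM with succinate. The Cre values were 1612, 356, 595 and 754 CPM and 503, 458, 886 and 924 CPM. The floxed groups did not overlap and the Cre groups did, and the interaction was 1.66 ± 0.60 (edgeR adjusted p = 0.970). The genotypes differed by 1.47 log2 units before succinate and by 3.13 with it. The summed level of 10 atrial markers, which include Nppa, had a median of 397 CPM in untreated floxed hearts, 191 with succinate, 769 in untreated Cre hearts and 796 with succinate. Among the 10, Myl7, Sln and Bmp10 were near 0 in all libraries, and the other 7 were tested.

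Gdf15, a secreted stress factor, was 12.98 ± 7.68 CPM in untreated floxed hearts and 1.31 ± 0.34 CPM with succinate (SD, n = 4), and 19.8 ± 4.31 CPM and 5.80 ± 1.51 CPM in Cre hearts. Its interaction was 1.52 ± 0.56 on the log2 scale, but the difference of the changes in CPM was -2.34, so the direction depends on the scale: the Cre hearts lost more CPM and a smaller fraction. Mybpc2, a myosin-binding protein mostly of fast skeletal muscle, had an interaction of 0.49 ± 0.20. The members that differed least included Rcan1 (0.04 ± 0.35), a target of calcineurin signalling, and the muscle protein Xirp1 (0.13 ± 0.34).

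The fatty acid genes showed the opposite sign. PPAR-alpha is the nuclear receptor that fatty acids activate, and its targets in the heart carry, activate and oxidise fatty acids. Of 21 listed targets 17 were tested, 0 passed, 0 had an unadjusted p under 0.05 with a positive interaction and 3 with a negative one, and 16 of the 17 interactions were negative; of all tested genes 2.13% were positive and 2.72% negative under that threshold. By voom with sample weights 9 of the 17 were negative under it, against 632 of all 14607 tested genes. With a replicate block 1 was, against 431 of all tested genes. Their median interaction was -0.41, with medians of 0.88 in floxed and 0.53 in Cre hearts. Averaged over genotypes, 15 of the 17 were called higher with succinate. Of all genes so called 81.5% had the smaller change in Cre hearts, so a negative sign was common beyond this list. Leaving out a library moved the median from -0.51 (untreated floxed replicate 4) to -0.24 (untreated Cre replicate 3). In untreated hearts the median target was 0.30 log2 units higher in the Cre genotype, and with succinate it was 0.25 lower.

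Ehhadh, the peroxisomal bifunctional enzyme of fatty acid oxidation, stood at 5.65, 10.4, 6.79 and 10.3 CPM in untreated floxed hearts and 51.2, 42.7, 65.6 and 39.8 CPM with succinate. In Cre hearts it stood at 5.69, 13.4, 22.05 and 12.3 CPM and 41.4, 36.1, 31.96 and 45.3 CPM. No untreated heart reached the level of any treated heart of either genotype, and the treated genotypes overlapped. The fold was 5.99 in floxed and 2.90 in Cre hearts, and the interaction was -1.05 ± 0.43 (95% interval -1.97 to -0.13; unadjusted p = 0.0280, edgeR adjusted p = 0.970). Without untreated Cre replicate 3 the interaction was -0.69.

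Ucp3, a mitochondrial carrier that fatty acids induce, stood at 21.1, 41.1, 12.2 and 46.3 CPM in untreated floxed hearts and 245, 208, 248 and 196 CPM with succinate. The Cre hearts had 13.9, 77.9, 122 and 50.6 CPM untreated and 180.3, 146, 165 and 165 CPM with succinate. The untreated Cre hearts spread widely, and all treated Cre hearts were below all treated floxed hearts. Its interaction was -1.58 ± 0.70 (unadjusted p = 0.0418, edgeR adjusted p = 0.970).

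Pdk4, the kinase that restrains pyruvate dehydrogenase when fat is burned, stood at 421, 512, 213 and 1546 CPM in untreated floxed hearts and 3968, 3888, 5250.5 and 3042 CPM with succinate. In Cre hearts the values were 455, 1598, 3869 and 1095 CPM and 3306, 3278, 3257 and 3603 CPM. Untreated Cre replicate 3 was above all 4 treated Cre hearts, so these groups overlapped. The interaction was -1.65 ± 0.84 (unadjusted p = 0.0718), and it moved to -0.91 without that library and to -2.46 without untreated floxed replicate 4. Acot1, a thioesterase that releases fatty acids from coenzyme A, had -1.09 ± 0.73, and -0.28 without untreated Cre replicate 3. Slc22a5, the carnitine transporter, had -0.55 ± 0.22, and Angptl4, an inhibitor of lipoprotein lipase, -1.67 ± 1.07.

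The wider list of 28 fatty acid oxidation genes differed less. Averaged over genotypes, 18 of them were called higher with succinate, a set in which 81.5% of genes had the smaller change in Cre hearts. 0 passed, 0 had an unadjusted p under 0.05 with a positive interaction and 2 with a negative one, against 2.13% and 2.72% of all tested genes. The 2 were Ehhadh and Slc27a1, a fatty acid transport protein, at -0.59 ± 0.21. Of the 28 interactions 23 were negative, with a median of -0.13, where 50.5% of all tested genes were positive. Cpt1a, the liver-type carnitine palmitoyltransferase also present in heart, had -0.41 ± 0.20 and the muscle form Cpt1b -0.41 ± 0.38. Cpt1b was counted at a low level, a mean log2 CPM of 1.02 against 6.34 for Cpt1a. The mitochondrial beta-oxidation enzymes lay near 0, such as Acadm at -0.10 ± 0.17, Hadha at -0.13 ± 0.17 and Echs1 at 0.01 ± 0.16. Leaving out untreated Cre replicate 3 brought the list's median to -0.02. Adipocytes share many of these genes. The summed level of the adipocyte markers had medians of 977 CPM in untreated and 1733 CPM in treated floxed hearts and of 1221 and 1599 CPM in Cre hearts. Only 5 of the 11 adipocyte markers in the count table were tested, and Adipoq, Plin1, Cidec, Cfd, Retn and Ucp1 were too low. The highest of the 5 was Fabp4 (mean log2 CPM 9.97), which the endothelial list also holds, so the sum is no specific measure of adipocytes. Lipe, the hormone-sensitive lipase among the tested markers, had an interaction of -0.49 ± 0.25. The part of adipocytes in the fatty acid values was not tested.

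**Figure D3:**
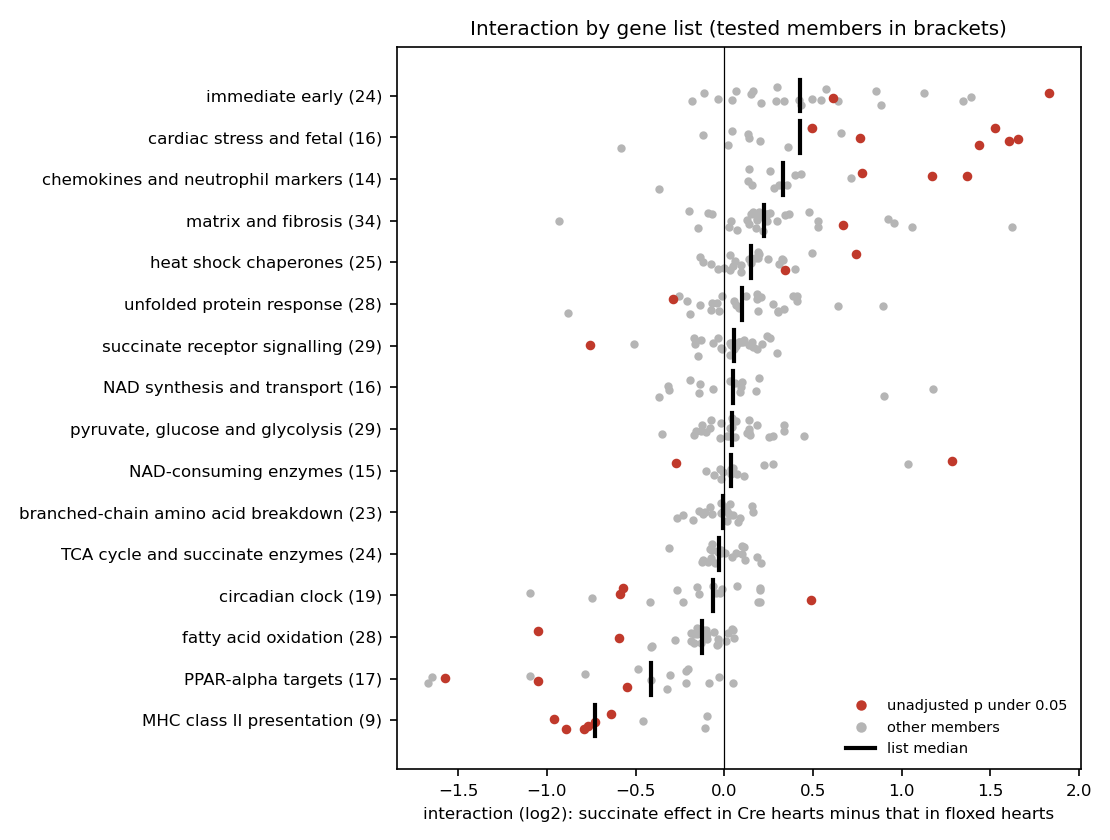
Every tested member of 16 functional gene lists is placed by its interaction (horizontal axis, log2), with red points for an unadjusted p under 0.05, grey for the others and a black bar for the list median. The medians run from -0.73 for MHC class II presentation to 0.43 for the immediate early genes, and those of the TCA cycle, branched-chain amino acids and glycolysis are -0.03, -0.01 and 0.04.

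The genes of MHC class II antigen presentation had the larger, not the smaller, change in Cre hearts by their estimates, again with none past the adjusted test. These genes belong to dendritic cells, macrophages and B cells: the class II chains display peptides, Cd74 chaperones them, H2-DM loads them and Ciita is the coactivator that switches the set on. Of 10 listed genes 9 were tested, 0 passed, 0 had an unadjusted p under 0.05 with a positive interaction and 6 with a negative one, against 2.13% and 2.72% of all tested genes, and all 9 interactions were negative. The median was -0.73 (-0.92 to -0.59 when each library was left out), with medians of -0.45 in floxed and -1.14 in Cre hearts. In whole hearts, fewer cells of a type and less RNA per cell cannot be told apart.

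The promoters of 3 class II genes are shown because class II promoters are known for a shared upstream module whose Y box is an inverted CCAAT. They are the 250 bases before the RefSeq gene start in build GRCm38.p6, 5′ to 3′ on the gene's strand, with the letters TGATTGG in capitals, and were chosen after their values had been seen. H2-Aa lies at chr17:34287824-34288073 (minus strand), H2-Eb1 at chr17:34305617-34305866 (plus strand) and H2-DMb1 at chr17:34152941-34153190 (plus strand).
H2-Aa: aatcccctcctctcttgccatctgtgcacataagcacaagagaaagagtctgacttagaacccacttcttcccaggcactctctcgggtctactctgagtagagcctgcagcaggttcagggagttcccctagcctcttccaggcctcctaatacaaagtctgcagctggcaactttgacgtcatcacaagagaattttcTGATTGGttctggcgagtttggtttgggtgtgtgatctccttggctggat
H2-Eb1: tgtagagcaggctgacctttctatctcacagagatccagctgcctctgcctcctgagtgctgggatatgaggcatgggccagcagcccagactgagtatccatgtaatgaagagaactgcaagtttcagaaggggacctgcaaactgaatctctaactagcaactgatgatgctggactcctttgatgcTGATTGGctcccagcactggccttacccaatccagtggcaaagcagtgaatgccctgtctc
H2-DMb1: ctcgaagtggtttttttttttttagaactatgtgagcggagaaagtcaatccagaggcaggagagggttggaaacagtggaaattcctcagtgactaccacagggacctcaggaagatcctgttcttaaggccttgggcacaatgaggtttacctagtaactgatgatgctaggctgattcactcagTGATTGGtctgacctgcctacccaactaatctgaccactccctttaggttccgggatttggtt
The match starts 50, 61 and 63 bases before the gene start in H2-Aa, H2-Eb1 and H2-DMb1. TGATTGG, read on either strand, was in 7.23% of the 32851 windows and in 4 of the 6 tested class II genes with a window. This motif too was picked after the sequences had been read.

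Cd74, the invariant chain, stood at 147, 204, 167 and 191 CPM in untreated floxed hearts and 82.97, 123, 147 and 149 CPM with succinate. The Cre hearts had 213, 225, 233 and 185 CPM and 99.4, 124, 69.99 and 97.3 CPM. The floxed groups overlapped and the Cre groups did not, and the treated genotypes overlapped. The interaction was -0.64 ± 0.25 (95% interval -1.16 to -0.11; unadjusted p = 0.0198, edgeR adjusted p = 0.970).

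H2-Ab1, a class II beta chain, followed the same order, with 48.96, 71.1, 56.2 and 69.9 CPM in untreated floxed hearts and 25.6, 47.9, 51.9 and 55.1 CPM with succinate. Its Cre values were 71.3, 81.2, 84.5 and 60.9 CPM and 31.4, 38.3, 23.8 and 34.8 CPM. Treated floxed replicate 1 was the lowest of its group for both Cd74 and H2-Ab1, and the other 3 were above every treated Cre heart for H2-Ab1. The interaction was -0.77 ± 0.29. H2-Aa had -0.79 ± 0.32, H2-Eb1 -0.73 ± 0.31 and H2-DMb1 -0.89 ± 0.32.

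Ciita stood at 2.63, 3.07, 3.41 and 2.56 CPM in untreated floxed hearts and 1.19, 2.002, 2.93 and 1.25 CPM with succinate. The Cre hearts had 4.94, 3.42, 4.14 and 2.59 CPM untreated and 1.31, 1.53, 0.991 and 1.09 CPM treated. As for the chains it controls, the Cre groups were apart and the floxed groups overlapped; its interaction was -0.96 ± 0.38. Ctss, a protease of antigen processing that macrophages express broadly, had -0.11 ± 0.34. The macrophage markers went the other way: 13 of 15 were positive, against 50.5% of all tested genes. Their median was 0.28 (0.13 without replicate 3 and 0.42 without replicate 1 of the Cre hearts given succinate). Averaged over genotypes, 9 of the 15 were called lower with succinate, a set in which 83.4% of genes had the smaller change in Cre hearts. The summed level of the macrophage markers had a median of 712 CPM in untreated floxed hearts, 491 with succinate, 715 in untreated Cre hearts and 611 with succinate. Among them Lyve1, a marker of resident macrophages that lymphatic endothelium shares, had 0.86 ± 0.27, and Ccr2, the receptor of monocyte-derived cells, -1.33 ± 0.62. The summed level of the 10 lymphocyte markers in the count table was 3.02 to 5.51 CPM over all libraries. The part of these cell types in the class II values was not tested.

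NAD genes were compared because the series title names NAD production. Of 23 genes of NAD synthesis and transport 16 were tested, with 0 at an unadjusted p under 0.05 in either direction and a median of 0.05. Nampt, the rate-limiting enzyme of salvage from nicotinamide, had an interaction of -0.19 ± 0.16 and stood at 188, 198, 241 and 174 CPM in untreated floxed hearts and 257, 218, 234 and 240.1 CPM with succinate. Its Cre values were 157, 179, 197 and 224 CPM and 193, 195, 187 and 208 CPM, and both genotypes' groups overlapped. Naprt, which makes NAD from nicotinic acid, had -0.14 ± 0.16 (95% interval -0.49 to 0.20).

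Nmrk2, the muscle nicotinamide riboside kinase that stressed hearts induce, stood at 46.6, 48.7, 35.6 and 10.6 CPM in untreated floxed hearts and 3.299, 4.14, 4.56 and 2.58 CPM with succinate. In Cre hearts the values were 63.6, 8.38, 6.45 and 17.2 CPM and 6.498, 5.57, 5.01 and 5.41 CPM. A single untreated Cre heart, replicate 1, stood far above the other 3, and the Cre groups overlapped. The interaction was 1.18 ± 0.93, ranged from 0.86 to 2.34 when each library was left out, and was 2.65 ± 0.39 (adjusted p = 0.0201) without both libraries that stood apart. As for Myh7, both libraries are extreme in Nmrk2 itself, so that value is not independent of the choice to leave them out. Of 15 NAD-consuming enzymes 1 was positive and 1 negative at an unadjusted p under 0.05, against 2.13% and 2.72% of all tested genes. They were Bst1, an enzyme related to CD38, at 1.28 ± 0.41, with a highest level of 1.74 CPM, and Parp2, a DNA repair polymerase, at -0.27 ± 0.12. The sirtuins lay between -0.10 (Sirt1) and 0.28 (Sirt6).

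Lists of energy metabolism outside fat had median interactions near 0. The 24 genes of the TCA cycle and succinate handling had a median of -0.03 and a range of -0.31 to 0.21, with 0 at an unadjusted p under 0.05. The subunits of succinate dehydrogenase had -0.08 ± 0.15 (Sdha), 0.11 ± 0.19 (Sdhb), -0.04 ± 0.13 (Sdhc) and 0.10 ± 0.13 (Sdhd). The 23 genes of branched-chain amino acid breakdown had a median of -0.01 and the 29 of pyruvate and glucose use 0.04, again with 0 in either direction. Their ranges were -0.26 to 0.16 and -0.35 to 0.45. Averaged over genotypes, 15 of the TCA genes and 15 of the branched-chain genes were called higher with succinate, so these lists held called responses while no member's estimated interaction was beyond 0.31 log2 units in size.

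Of 31 genes of succinate receptor signalling and transport 29 were tested, and the median was 0.05. Rgs2, a brake on Gq signalling, had -0.76 ± 0.32 and was the 1 member at an unadjusted p under 0.05 (2.72% of all tested genes were negative under it). It stood at 14.1, 23.95, 11.2 and 10.8 CPM in untreated floxed hearts and 28.3, 27.97, 22.7 and 31.3 CPM with succinate, against 16.6, 15.1, 27.5 and 18.99 CPM and 22.9, 21.2, 16.7 and 23.8 CPM in Cre hearts; both genotypes' groups overlapped. The G protein subunits Gnai2 (0.16 ± 0.11), Gnai3 (0.08 ± 0.15), Gnaq (0.04 ± 0.15) and Gna11 (0.10 ± 0.10) had interactions near 0. Slc16a1, the monocarboxylate transporter MCT1 that can carry succinate, had 0.21 ± 0.19, and Egln3, an oxygen-sensing hydroxylase that succinate can inhibit, 0.30 ± 0.17.

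Stress and injury genes outside the sarcomere leaned to positive values, mostly without reaching the unadjusted threshold. Of 24 immediate early genes 21 were positive, against 50.5% of all tested genes. Their median was 0.43 (0.22 to 0.64 when each library was left out). At an unadjusted p under 0.05, 2 were positive, Fosb (1.83 ± 0.85) and Ier2 (0.61 ± 0.27), against 2.13% of all tested genes. The interaction of Fosb was 0.93 without replicate 2 of the Cre hearts given succinate. Egr1 (1.39 ± 0.75) and Fos (1.35 ± 0.81) had large standard errors; these genes respond within minutes to many stimuli. Of 14 chemokine and neutrophil genes 13 were positive, against 50.5% of all tested genes, with a median of 0.33 (0.17 to 0.55 when each library was left out). At an unadjusted p under 0.05, 3 were positive, against 2.13% of all tested genes: Ccl2 (1.37 ± 0.54) and Ccl7 (1.17 ± 0.48), which attract monocytes, and Cxcl14 (0.77 ± 0.31). Averaged over genotypes, 4 immediate early genes were called lower with succinate and 1 higher, and 7 chemokine and neutrophil genes were called lower. Of all genes called lower 83.4% had the smaller change in Cre hearts. A positive sign was thus common beyond these lists among genes that fell with succinate.

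Of 34 matrix and fibrosis genes 29 were positive, against 50.5% of all tested genes. Their median was 0.22 (0.12 to 0.32 when each library was left out). Under the threshold 1 was positive, Eln, the gene of elastin, at 0.67 ± 0.29, against 2.13% of all tested genes. Averaged over genotypes, 7 of the 34 were called lower with succinate, a set in which 83.4% of genes had the smaller change in Cre hearts. The main fibrillar collagens had 0.19 ± 0.37 (Col1a1) and 0.04 ± 0.43 (Col3a1), and Postn, a marker of activated fibroblasts, 0.53 ± 0.48. Markers of fibroblasts themselves had a median of 0.23 over 12 genes (0.13 to 0.38), and their summed level had medians of 3609 and 3234 CPM in floxed hearts and 3640 and 4074 CPM in Cre hearts, untreated and treated; their part in the matrix values was not tested.

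The heat shock genes showed how wide some intervals were. Of 25 chaperones 2 were positive at an unadjusted p under 0.05, Hspa1l (0.74 ± 0.25) and Hspb7 (0.34 ± 0.15), and 0 negative, against 2.13% and 2.72% of all tested genes. The median was 0.15, which was 0.02 without untreated floxed replicate 1 and 0.31 without the 2 libraries that stood apart. Averaged over genotypes, 19 of the 25 were called lower with succinate and 1 higher. Of all genes called lower 83.4% had the smaller change in Cre hearts. Hspa1a, the inducible HSP70, stood at 69.5, 8.43, 26.1 and 11.7 CPM in untreated floxed hearts and 1.98, 1.29, 2.22 and 0.797 CPM with succinate. In Cre hearts it stood at 57.6, 2.24, 3.48 and 75.03 CPM and 2.199, 2.71, 1.19 and 2.63 CPM. Untreated hearts of both genotypes spanned a wide range, and its interaction was 0.19 ± 1.52, a value whose sign changed when any of 4 libraries was left out; its near-identical copy Hspa1b had 0.49 ± 1.67. Among 28 genes of the unfolded protein response 1 was negative under the threshold, the chaperone Dnajb9 at -0.29 ± 0.12, against 2.72% of all tested genes. The median was 0.10 (0.04 to 0.22 when each library was left out). Averaged over genotypes, 17 of the 28 were called lower with succinate and 2 higher. By voom with sample weights 9 of the 28 were instead positive under the threshold and 0 negative, with a median of 0.20. Of all 14607 tested genes voom put 623 positive and 632 negative under it.

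**Figure D4:**
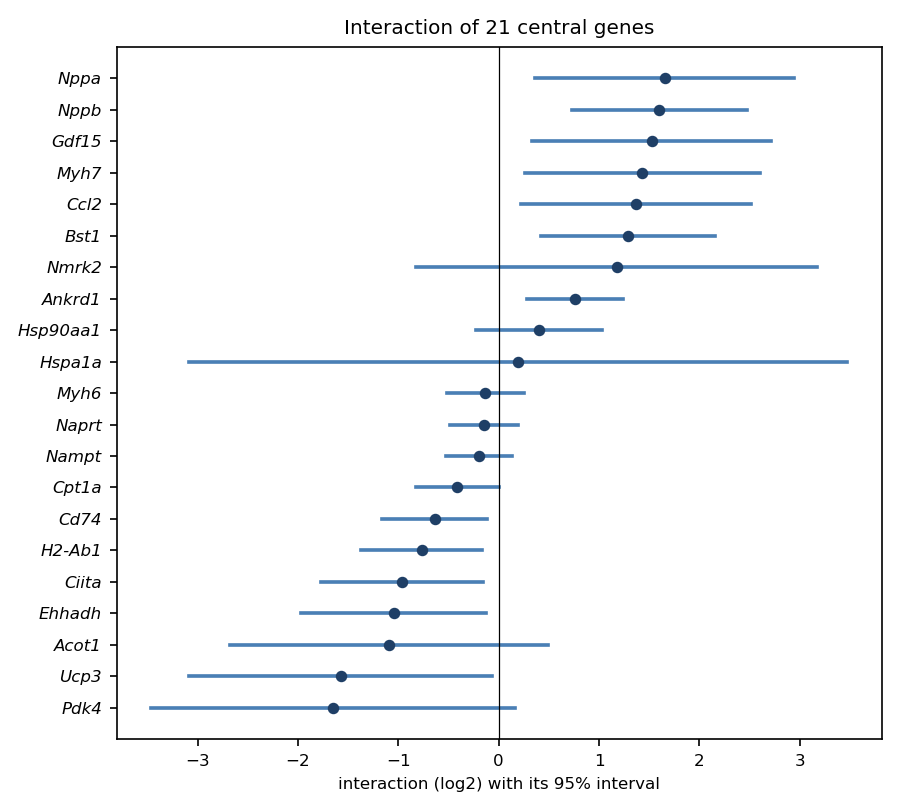
The interaction of each of 21 central genes (horizontal axis, log2) is a dot, and the bar is its 95% interval from the edgeR fit. Intervals above 0 belong to Nppa, Nppb, Gdf15, Myh7, Ccl2, Bst1 and Ankrd1, those below 0 to Cd74, H2-Ab1, Ciita, Ehhadh and Ucp3, and Hspa1a and Nmrk2 have the widest reach; none passed adjustment over all tested genes.

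The 10 named genes of smallest p included 2 already described, Nppb and Ankrd23. Xrn2, a nuclear exonuclease that ends transcription, was first, at 22.7, 26.1, 23.7 and 27.5 CPM in untreated floxed hearts and 50.6, 49.4, 56.2 and 46.7 CPM with succinate. In Cre hearts it stood at 26.7, 33.4, 32.7 and 35.4 CPM and 40.99, 41.4, 41.5 and 43.7 CPM. The untreated genotypes overlapped, the treated ones did not, and neither genotype's treated hearts overlapped its untreated ones. The interaction was -0.63 ± 0.13 (95% interval -0.90 to -0.36; unadjusted p = 0.000106, edgeR adjusted p = 0.930, DESeq2 adjusted p = 0.0263), and it passed edgeR without the 2 libraries that stood apart (-0.76 ± 0.11, adjusted p = 0.0201). Those libraries held the highest untreated floxed and the lowest untreated Cre value of Xrn2, so that pass is not independent of leaving them out.

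Eif3j2, a gene for a subunit of translation initiation factor 3, stood at 3.402, 5.28, 5.05 and 4.54 CPM in untreated floxed hearts and 5.78, 5.397, 2.74 and 6.11 CPM with succinate. In Cre hearts the values were 1.55, 2.02, 1.83 and 1.102 CPM and 5.48, 3.98, 5.94 and 6.98 CPM. The untreated Cre hearts were below all other 12 libraries, which overlapped each other. Its interaction was 1.65 ± 0.35 (edgeR adjusted p = 0.930, DESeq2 adjusted p = 0.0263); it has a near-identical copy, Eif3j1, so the split of reads between them is uncertain.

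Cited2, a transcriptional regulator that restrains the hypoxia factor HIF-1, stood at 16.4, 19.4, 18.6 and 15.7 CPM in untreated floxed hearts and 55.5, 45.5, 63.1 and 51.2 CPM with succinate. Its Cre values were 17.97, 29.1, 34.9 and 19.96 CPM and 41.7, 38.8, 39.98 and 39.7 CPM. Treated floxed hearts were above all treated Cre hearts, and the untreated genotypes overlapped. The interaction was -0.97 ± 0.23 (unadjusted p = 0.000514, edgeR adjusted p = 0.930).

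Hectd2os, an RNA named for lying opposite Hectd2, stood at 10.7, 11.7, 12.04 and 6.83 CPM in untreated floxed hearts and 4.398, 3.77, 3.68 and 3.57 CPM with succinate. The Cre values were 15.8, 10.2, 11.2 and 10.9 CPM and 10.3, 8.43, 9.003 and 10.3 CPM. Only the floxed hearts given succinate were low, apart from all 12 other libraries. The interaction was 1.08 ± 0.24, and 1.39 ± 0.16 without the 2 libraries that stood apart (adjusted p = 0.00240). Those libraries held the lowest untreated floxed and the highest untreated Cre value of Hectd2os, so the second estimate is not independent of leaving them out. Mhrt, a long noncoding RNA of the Myh7 locus, had -0.57 ± 0.14, with group means of 27.5 and 55.7 CPM in floxed hearts and 28.2 and 38.4 CPM in Cre hearts. The labels do not say whether strand was used in counting, and without it these RNAs and their antisense partners share reads.

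The others of the 10 were Pnpla7, a lysophospholipase (-0.66 ± 0.16), H1f2, a linker histone (-0.60 ± 0.15), and Etfbkmt, the methyltransferase of an electron transfer flavoprotein (-0.68 ± 0.18). All 3 rose with succinate in both genotypes, by 1.08 to 1.10 log2 units in floxed hearts and by 0.42 to 0.50 in Cre hearts.

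Clock genes had interactions on both sides. Of 19 tested 1 was positive and 2 negative at an unadjusted p under 0.05, against 2.13% and 2.72% of all tested genes. Their median was -0.07. Nr1d2, a repressor of the clock loop, had -0.57 ± 0.17 and Per3 -0.59 ± 0.26, while Cry1, a repressor of the opposite phase, had 0.49 ± 0.21. Cry1 stood at 13.3, 13.5, 14.3 and 12.1 CPM in untreated floxed hearts and 7.54, 7.53, 7.56 and 7.63 CPM with succinate, and at 13.2, 8.83, 10.7 and 11.3 CPM and 6.66, 8.28, 11.9 and 8.43 CPM in Cre hearts. The treated floxed hearts were almost equal, and the Cre groups overlapped.

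Markers of other cell types were read for the same contrast. The median interaction was 0.06 for 13 ventricular muscle genes, 0.09 for 12 endothelial genes, 0.25 for 10 pericyte and smooth muscle genes, -0.20 for 5 adipocyte genes, -0.16 for 8 lymphocyte genes, 0.01 for 2 epicardial genes and 0.49 for 7 skeletal muscle genes. The adipocyte median was -0.003 without treated floxed replicate 4, the lymphocyte median 0.09 without untreated floxed replicate 1, and the endothelial median 0.01 without untreated Cre replicate 1. With each library left out the ventricular median ran from -0.06 to 0.15 and the epicardial one from -0.15 to 0.17, and the pericyte and smooth muscle median was 0.47 without the 2 libraries that stood apart. At an unadjusted p under 0.05 were 2 of the 12 endothelial genes, Vwf (0.82 ± 0.32) and Emcn (0.52 ± 0.19), and 1 of 12 fibroblast genes, Fbln1 (0.56 ± 0.16). These were positive, as were Mybpc2 of the skeletal muscle list, Nppa of the atrial list and Lyve1 of the macrophage list, while Ccr2 of the macrophage list was negative. Of all tested genes 2.13% were positive and 2.72% negative under that threshold. The 6 erythrocyte genes had the lowest median, -1.62, and it was -0.11 without untreated Cre replicate 2, whose summed erythrocyte level of 481 CPM was the highest of all libraries.

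Gene length moved with the interaction across the whole table. With the tested genes in 4 equal bins from short to long, the median interaction was 0.07, 0.02, -0.02 and -0.07. The counts at an unadjusted p under 0.05 were 96 higher and 52 lower in the bin of shortest genes and 44 higher and 146 lower in that of the longest. A library's length balance was the median relative log2 level of the longest bin minus that of the shortest. It differed between libraries within every group and was most extreme in replicate 4 of the untreated floxed hearts (-0.31). Close to that were replicates 4 (-0.255) and 1 (0.251) of the floxed hearts given succinate and replicate 2 of the Cre hearts given succinate (-0.25). With each library's length balance as a covariate, chosen after seeing the data, 0 genes were called and 887 had an unadjusted p under 0.05. The median of the stress list was then 0.45, that of the PPAR-alpha targets -0.38 and that of the class II genes -0.87. Without the 2 libraries that stood apart these medians were 0.45, -0.59 and -0.74.

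**Figure D5:**
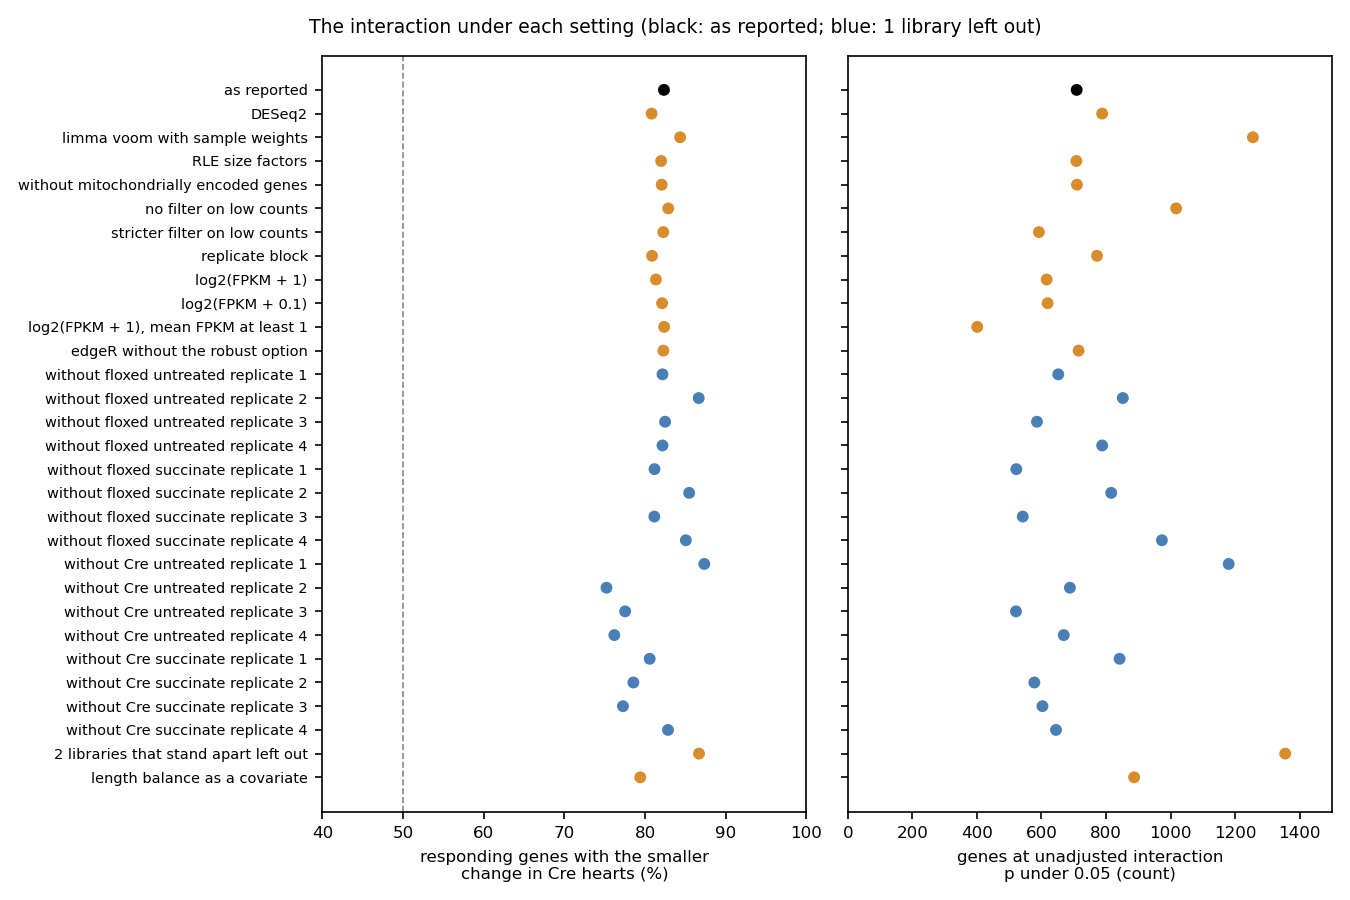
The left panel gives, for each setting named at the left, the share of succinate-responding genes with the smaller change in Cre hearts (percent, dashed line at 50), and the right panel the number of genes at an unadjusted interaction p under 0.05. Shares run from 75.2% to 87.3% and counts from 401 to 1355, the highest when both libraries that stood apart were left out.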

How the data were processed

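Bulk RNA sequencing of 16 mouse heart samples in 4 groups of 4 was read from the whole-number counts per gene that the authors deposited, and from the authors' FPKM, which are those counts scaled by library total and gene length. The submitters' processing notes name HISAT2, HTSeq, fastp, DESeq2 and R 3.2.0, and build GRCm39. Neither settings nor strandedness are stated, and near-identical or antisense genes may have their reads split wrongly. Per the labels' protocols, RNA was extracted with TRIzol. The labels share 1 batch value and do not say that samples are separate animals, so p-values rest on a spread that may be technical.

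Counts were tested as deposited in R 4.3.3 with edgeR 4.0.16: filterByExpr with a minimum count of 10, TMM factors, a robust quasi-likelihood fit of 4 group means with 12 residual degrees of freedom, and a threshold of 0.05 after Benjamini-Hochberg adjustment over all tested genes. Unadjusted p-values come from the same fit. The fit was tested on simulated data. The precision is that of 27835235 to 34700996 counts per library, where 3 counts are 0.0865 to 0.108 CPM, a floor that covers counting error only. Alternatives used DESeq2 1.42.0, limma 3.58.1 (voom, and log2 of FPKM plus 1 or 0.1), other scalings and filters, a replicate block and each library left out.

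Named genes were the central genes, the 10 of smallest interaction p that had a plain symbol and averaged 1 or more on the log2 CPM scale, and the 2 of smallest p in each of 28 lists; other list members named in the text were picked after their values were seen. The members, lists and tests were chosen with earlier results of these data known, so no list's direction is independent evidence. Promoter sequences are from RefSeq (GRCm38.p6); as the counts use another build, they are matched by symbol only, and genes without an entry are not shown.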

Additional observations from a re-analysis of the deposited data

Results flagged for a closer look

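Of 304 combinations of a named gene and a group, 21 (6.91%) held a library far from the other 3, where chance flags about 5%. Replicate 4 of the untreated floxed hearts was the library set apart most often, 4 times: low for Myh7 (1468 CPM, the nearest other at 5165) and Cd8a (0.104 CPM), and high for Lipe (86.9 CPM) and Alas2 (9.63 CPM). In the same group replicate 1 was high for H1f2 (40.6 CPM) and low for Gsn (1694 CPM), replicate 2 was high for Ier2 (28.5 CPM) and Mybpc2 (24.6 CPM), and replicate 3 was high for Bst1 (1.74 CPM) and Lyve1 (42.5 CPM).

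Among untreated Cre hearts, replicate 2 was high for Alas2 (20.8 CPM), Slc4a1 (0.704 CPM) and Pdgfrb (89.2 CPM), and replicate 1 was low for Mybpc3 (2985 CPM). Of the floxed hearts given succinate, replicate 1 was high for Nadk2 (84.2 CPM) and replicate 3 low for Parp2 (13.9 CPM). In Cre hearts given succinate, replicate 4 was high for Pdk4 (3603 CPM) and Idh1 (71.6 CPM), replicate 2 was high for Fosb (3.42 CPM) and Tbx18 (5.10 CPM), and replicate 3 was high for Dkk3 (8.89 CPM).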

How the results depend on the processing

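Each of the 76 named genes was recomputed under every setting, and 2251 of 2265 values kept their direction and their side of the threshold. The sign turned in 8: Hspa1a ran from -0.71 to 0.90 over the libraries left out and was -5.04 as a difference of CPM changes, Gdf15 was -2.34 on that CPM scale, and Wt1 ran from -0.036 to 0.44 over the libraries left out and was -0.0093 with length balance as a covariate. The other 6 moved past the threshold. By DESeq2 these were Xrn2 and Eif3j2. Without replicate 4 of the untreated floxed hearts and replicate 1 of the untreated Cre hearts, an alternative chosen after seeing the data, they were Myh7, Nmrk2, Xrn2 and Hectd2os. In each of these genes both left-out libraries were the lowest or highest of their group, so these passes are not independent of the choice.

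Calls of the interaction numbered 0 in the reported fit, 4 by DESeq2 and 7 without those 2 libraries (also Fbxl22, Txnip and Gm17251), and 0 in every other setting, each single library left out included. The count at an unadjusted p under 0.05, 709 as reported, was 1255 by voom, 401 for genes of mean FPKM of at least 1, 1355 without the 2 libraries, and 521 to 1180 with 1 library left out, the highest without untreated Cre replicate 1. The share of responding genes with the smaller change in Cre hearts was 80.8% by DESeq2, 84.3% by voom, 86.7% without the 2 libraries, 79.4% with length balance as a covariate, and 75.2% to 87.3% with 1 library left out. The cause of these moves was not tested.

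With a replicate block the interaction gave 0 calls, 772 genes at an unadjusted p under 0.05 and a share of 80.9%. Same-numbered libraries of different groups correlated at -0.12 to 0.32, with 3 of 24 pairs over 0.1. The highest values joined replicates 1 of the genotypes, at 0.32 with succinate and 0.27 untreated. Of 16 libraries 5 correlated best with their own number. Whether same-numbered samples were handled together was not tested, and these values cannot exclude it. The 95% intervals were widest for genes of low level; the part of depth in this was not tested.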
